A study of Mus musculus with 8 samples.

Results

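The genes described here encode the CD3 complex and the proteins that first relay its signal in T cells: Cd3d, Cd3e, Cd3g, Cd247, Lck, Zap70, Lat, Cd28 and Cd5. They were taken by gene symbol, and all 9 were found among the 38406 rows of the deposited count table. The libraries were made from regulatory T cells (Tregs, CD4 T cells that express Foxp3 and hold immune responses in check) sorted from male C57BL/6 mice, 1500 cells per library. Leg muscles (tibialis anterior, quadriceps and gastrocnemius) had been injured with 0.9 µg of cardiotoxin each, a venom toxin that destroys muscle fibres, and muscle and spleen were collected 4 days later. The 4 groups were spleen Tregs of mice aged 2 months (young spleen), spleen Tregs of mice older than 6 months (aged spleen), and muscle Tregs of the same ages (young muscle, aged muscle), with 2 libraries each. Every group, spleen included, came from injured mice, and no uninjured group is among the samples. The series describes the libraries as biological duplicates, but neither the sort markers nor the number of mice behind a library is given in the sources used here, and the p-values speak only for the spread between libraries.

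The antigen receptor of a T cell has no signalling tail of its own. The CD3 chains and the zeta chain, encoded by Cd247, carry tyrosine motifs (ITAMs) that the kinase Lck phosphorylates, and the kinase Zap70 then docks on them and phosphorylates the scaffold protein Lat. CD28 gives the costimulatory signal beside the receptor, and CD5 is a surface protein that dampens receptor signalling. Tregs depend on this pathway for their development and for their suppressive function.

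Library totals ranged from 1969982 to 4008622 counts, and the 9 genes had 436 to 5611 counts per library. Counting error would be at most 4.79% if each read were an independent count. The RNA was amplified and no molecular identifiers are described, so the error in sampling molecules is not known and can be larger. All 9 passed the filter on low counts. Treg markers (Foxp3, Il2ra, Ikzf2, Tnfrsf18, Ctla4 and Cd4) were all detected in every library and summed to 2346 to 2976 CPM (read counts relative to the TMM-scaled library size) in spleen and 3586 to 4491 in muscle. Without Ctla4 the other 5 summed to 1855 and 1865 CPM in young and 2357 and 2412 in aged spleen, and to 1847 and 2021 in young and 2256 and 2632 in aged muscle, so that spleen and muscle overlapped at each age. Foxp3 itself was at 15.4 to 25.8 CPM in spleen and 23.7 to 41.5 in muscle, and the CD8 T cell gene Cd8a at 0.387 to 2.37 CPM in the 8 libraries. Young muscle replicate 1 stood apart, with 763 CPM of 14 myeloid genes against 82.1 to 201 in the 7 other libraries. It also had 553 CPM of 8 stromal and endothelial genes against 155 to 354 in the others. Pecam1 was at 157 CPM in this library and at 119 to 344 in the others, where it made up most of the sum. The excess of young muscle replicate 1 thus lay in other genes of that list. Summed levels were 0 to 4.65 CPM for the gamma-delta T cell list (Trdv4 at 0 in every library) and 7.49 to 16.8 for the CD8 T cell list. They were 12.0 to 39.2 CPM in spleen and 36.5 to 76.7 in muscle for the NK cell list and 8.83 to 18.7 and 20.7 to 35.5 for the muscle fibre and satellite cell list, with Myog at 0 in every library. Most of the NK cell sum was the single gene Nkg7, at 6.97 to 29.7 CPM in spleen and 31.5 to 64.1 in muscle. The erythroid list summed to 20.9 to 154 CPM in spleen and 7.45 to 41.04 in muscle. The B cell list summed to 508 to 678 CPM in spleen and 296 to 362 in muscle, of which reads of the immunoglobulin gene Ighm made up 426 to 573 and 222 to 271. That list was therefore lower in muscle, as most of the 9 genes were, and its part in their difference was not tested. In sorted bulk samples, fewer T cells in a library and less of a transcript per cell cannot be told apart.

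Positions are on GRCm38 (GENCODE M21). Cd3g (chromosome 9, 44969572 to 44980431), Cd3d (44981786 to 44987339) and Cd3e (44998740 to 45009627) form a cluster of 40056 bases, in which Cd3g and Cd3d are transcribed away from each other from starts 1355 bases apart. Cd247 (165788681 to 165877277), Zap70 (36761798 to 36782818) and Cd28 (60716800 to 60773359) are far apart on chromosome 1. Lck is on chromosome 4 (129548344 to 129573641), Lat on chromosome 7 (126363824 to 126369570) and Cd5 on chromosome 19 (10717116 to 10739002). The strand setting of the counting is not given in the sources used here, which bears on Cd247: 56.4% of its annotated exon bases lie on the opposite strand of exons of Pou2f1, a transcription factor gene. Reads from that stretch could be dropped or given to either gene, and the values of Cd247 are uncertain to that extent. Of the other genes, 3.31% of the exon bases of Cd3e lie opposite a long noncoding gene, and short microRNA genes lie within exons of Lck (0.854% of exon bases) and Lat (2.71%).

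The bases upstream of the RefSeq starts of 6 of these genes (GRCm38.p6) are given here because Lck, Zap70 and Cd247 were among the genes lowest in muscle relative to spleen in at least 1 age, Cd3d and Cd3g are the divergent pair, and Cd5 was the gene that went the other way. Capitals mark AGGAAG on either strand, which is 1 form of the sites that ETS transcription factors bind around a GGAA core. The Lck sequence is that of the upstream (distal) promoter, the one known for activity in mature T cells; gene-level counts do not separate it from the proximal promoter.
Lck, chr4:129573642-129573891 (- strand): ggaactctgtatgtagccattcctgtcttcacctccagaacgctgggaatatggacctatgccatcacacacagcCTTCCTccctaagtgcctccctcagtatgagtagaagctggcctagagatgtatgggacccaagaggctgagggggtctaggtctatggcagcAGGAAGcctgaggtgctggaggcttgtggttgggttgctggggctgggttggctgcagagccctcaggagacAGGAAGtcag
Zap70, chr1:36761548-36761797 (+ strand): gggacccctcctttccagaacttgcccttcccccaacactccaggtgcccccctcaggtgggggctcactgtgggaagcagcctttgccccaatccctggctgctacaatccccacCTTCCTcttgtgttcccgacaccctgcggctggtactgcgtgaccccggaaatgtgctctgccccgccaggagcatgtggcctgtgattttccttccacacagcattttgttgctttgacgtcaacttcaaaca
Cd247, chr1:165788431-165788680 (+ strand): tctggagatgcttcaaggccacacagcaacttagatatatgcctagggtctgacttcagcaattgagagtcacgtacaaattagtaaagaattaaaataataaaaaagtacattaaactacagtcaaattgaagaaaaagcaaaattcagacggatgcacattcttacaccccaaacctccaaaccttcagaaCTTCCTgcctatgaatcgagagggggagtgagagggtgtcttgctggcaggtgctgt
Cd3d, chr9:44981536-44981785 (+ strand): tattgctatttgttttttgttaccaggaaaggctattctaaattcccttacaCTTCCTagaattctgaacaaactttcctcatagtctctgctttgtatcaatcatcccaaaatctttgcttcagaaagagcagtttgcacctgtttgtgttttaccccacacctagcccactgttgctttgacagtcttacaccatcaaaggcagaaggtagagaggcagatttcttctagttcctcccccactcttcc
Cd3g, chr9:44980432-44980681 (- strand): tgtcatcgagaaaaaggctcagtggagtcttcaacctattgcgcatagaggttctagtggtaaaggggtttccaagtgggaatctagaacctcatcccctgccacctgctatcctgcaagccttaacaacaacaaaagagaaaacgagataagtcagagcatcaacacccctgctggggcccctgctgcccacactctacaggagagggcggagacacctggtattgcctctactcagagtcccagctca
Cd5, chr19:10739003-10739224 (- strand): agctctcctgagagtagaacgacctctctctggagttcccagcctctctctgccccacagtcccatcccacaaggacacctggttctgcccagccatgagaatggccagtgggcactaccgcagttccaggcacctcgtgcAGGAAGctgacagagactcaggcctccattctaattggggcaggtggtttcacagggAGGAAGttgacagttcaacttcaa
In the first listed promoter of each gene, AGGAAG was found in 7 of the 8 genes with a RefSeq promoter in the table used, in every one but Cd3g, and in 29.5% of 32851 promoters of 250 bases. The other motifs searched on both strands were CANNTG (E-box; 7 of 8, against 66.2% of promoters), CTTTGA (TCF-type; Cd3d and Zap70, against 13.8%) and TGTGGT (RUNX-type; Lck, against 14%), for which windows of 222 to 250 bases upstream were used. Further promoters listed for Lck and Zap70 were not counted; the second of Lck holds an E-box and the second of Zap70 a TGTGGT. Cd28 had no entry. Such matches describe letters in a window and not occupied sites. Cd5, which was not lower in muscle, holds AGGAAG, and Cd3g, which was lower in aged muscle, does not. The shorter GGAA does occur in the Cd3g window, so this contrast holds only for the letters searched.

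Lck, Cd247 and Cd3d mRNA passed as lower in muscle than in spleen Tregs at both ages, and Zap70, Cd3g and Lat in aged mice only. In young mice Zap70, Cd3g and Lat were lower in muscle too, without overlap, but their values of -0.50, -0.43 and -0.35 did not pass. By edgeR the tissue difference itself differed between ages for 0 of the 9 genes. Lck, the kinase that starts the cascade, was read at 1610.5 and 1577 CPM in young and 1376 and 1428 in aged spleen, and 757 and 712 in young and 753 and 589 in aged muscle. All 4 muscle libraries lay below all 4 spleen libraries. Its log2 fold change, muscle against spleen, was -1.12 ± 0.15 (SE) in young mice, 2.17-fold lower (edgeR adjusted p = 8.54e-05), and -1.06 ± 0.15 in aged mice, 2.09-fold lower (edgeR adjusted p = 0.000204). These calls held under all 15 alternatives run for each comparison, with log2 fold changes of -1.16 to -1.002 in young and -1.23 to -0.90 in aged mice.

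**Figure D1:**
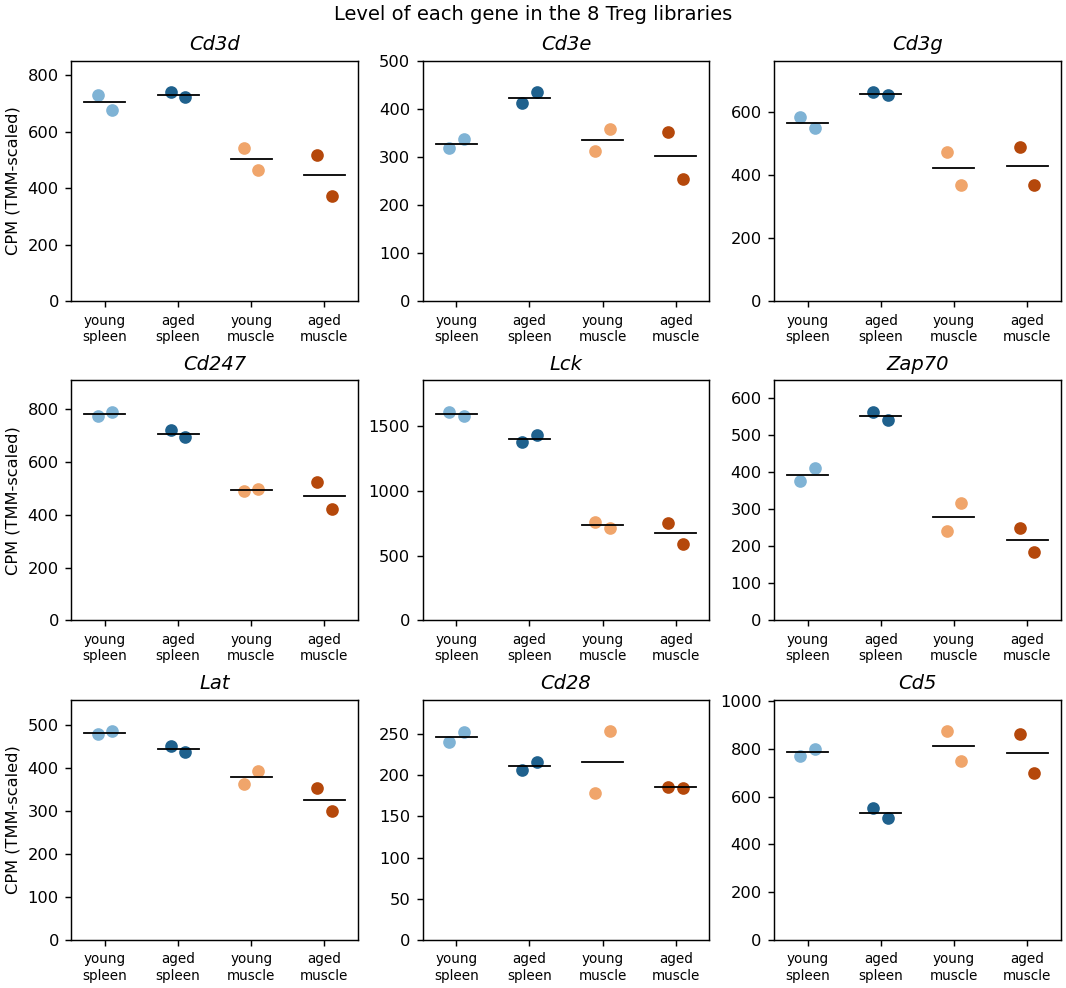
TMM-scaled CPM (vertical axes, starting at 0) of the 9 genes in the 8 libraries; each point is a library and each line a group mean. Lck, Cd247, Cd3d, Cd3g, Zap70 and Lat are lower in all 4 muscle libraries than in all 4 spleen libraries, Cd28 overlaps, and Cd5 is lowest in aged spleen.

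Zap70, the kinase recruited to the phosphorylated chains, was at 375 and 409.5 CPM in young and 562 and 540.1 in aged spleen, and 241 and 316 in young and 249.5 and 185 in aged muscle. Its mean was thus highest in aged spleen and lowest in aged muscle, whose libraries overlapped with those of young muscle. In aged mice it was lower in muscle by -1.34 ± 0.18 on the log2 scale, 2.53-fold (edgeR adjusted p = 0.000132), the largest difference among the 9 genes in that comparison. This call held under all 15 alternatives. In young mice the value was -0.50 ± 0.18 (edgeR adjusted p = 0.057), which did not pass, although it passed by DESeq2 (-0.46; adjusted p = 0.0467) and in edgeR without a low-count filter (-0.52; adjusted p = 0.0375).

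Among the receptor chains, Cd247, which encodes the zeta chain, was at 774 and 789.6 CPM in young and 719.6 and 693 in aged spleen, and 491 and 496 in young and 524 and 420.3 in aged muscle. It was lower in muscle by -0.66 ± 0.15 in young (edgeR adjusted p = 0.0051) and -0.58 ± 0.15 in aged mice (edgeR adjusted p = 0.014). Pou2f1, whose exons overlap it, was also lower in muscle, by -1.43 ± 0.21 and -0.87 ± 0.20, and how the shared reads were counted was not tested. Cd3d, the delta chain, was at 729 and 678 CPM in young and 739 and 722 in aged spleen, and 541 and 466 in young and 517 and 373 in aged muscle. Its differences were -0.48 ± 0.17 in young mice, just past the threshold (edgeR adjusted p = 0.0496), and -0.71 ± 0.17 in aged mice (edgeR adjusted p = 0.0085).

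Cd3g, the gamma chain, was at 584 and 547 CPM in young and 662 and 653 in aged spleen, and 474 and 368 in young and 488 and 369 in aged muscle. It was lower in aged muscle by -0.62 ± 0.17 (edgeR adjusted p = 0.02), while the young difference of -0.43 ± 0.17 did not pass (edgeR adjusted p = 0.084). Cd3e, the epsilon chain, was at 319 and 337 CPM in young and 413 and 435 in aged spleen, and 313 and 359.7 in young and 353 and 254 in aged muscle. Young spleen and young muscle libraries overlapped for Cd3e, with a difference of 0.04 ± 0.17, and the aged difference of -0.48 ± 0.17 missed the threshold (edgeR adjusted p = 0.058). That aged difference passed without a low-count filter (-0.54), without either young muscle library (-0.48 each) and without aged muscle replicate 1 (-0.72). The 4 chains together summed to 2352 to 2534 CPM in the spleen libraries and to 1416 to 1882 in the muscle libraries.

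The scaffold gene Lat was at 478 and 485 CPM in young and 450.1 and 436 in aged spleen, and 363 and 392 in young and 353 and 299 in aged muscle. Its difference was -0.44 ± 0.15 in aged mice (edgeR adjusted p = 0.046) and -0.35 ± 0.15 in young mice, which did not pass (edgeR adjusted p = 0.097). Of the surface receptors, Cd28 was at 241 and 253 CPM in young and 206 and 217 in aged spleen, and 178 and 254 in young and 186 and 184 in aged muscle, with differences of -0.19 ± 0.18 and -0.19 ± 0.17 that did not pass. Cd5 was at 772 and 801 CPM in young and 552 and 509 in aged spleen, and 875 and 749 in young and 864 and 701 in aged muscle. It was the 1 gene of the 9 that was higher in aged muscle than in aged spleen, by 0.56 ± 0.15 (1.48-fold; edgeR adjusted p = 0.02), and in young mice it differed by 0.05 ± 0.15.

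In young mice 3 of the 9 genes were lower in muscle (Cd3d, Cd247 and Lck) and 0 higher, against 10.9% lower and 11.4% higher of the 14772 genes tested. In aged mice 6 were lower (Cd3d, Cd3g, Cd247, Lck, Zap70 and Lat) and 1 higher (Cd5), against 9.27% lower and 9.57% higher of all genes. The median log2 fold change of the 9 was -0.43 in young and -0.58 in aged mice, beside medians of 0.07 and 0.03 over all genes tested. Within young mice 6 of the 9 were lower in both muscle than in both spleen libraries (30% of all genes tested; 31.7% were higher), and within aged mice 8 were lower (32.4%) and 1 higher (33%). Over both ages, 6 of the 9 (Cd3d, Cd3g, Cd247, Lck, Zap70 and Lat) were lower in every muscle library than in every spleen library, as were 14.6% of all genes tested, and 0 were higher in every muscle library, as were 12.3%. Which of the smaller differences passed depended on the libraries entered, and those called with all 8 kept their direction. Without either aged spleen library only Lck and Zap70 passed in aged mice, though the fold changes moved little, to -0.73 and -0.70 for Cd3d, -0.63 and -0.61 for Cd3g, -0.61 and -0.55 for Cd247, -0.47 and -0.42 for Lat and 0.50 and 0.62 for Cd5. Without aged muscle replicate 2, Cd3d, Lck, Zap70 and Cd5 passed, and Cd3g was at -0.43, Cd247 at -0.43 and Lat at -0.33. The call of Lat in aged mice also ended without either young spleen library, at an unmoved -0.44. In young mice Cd247 and Lck passed when replicate 1 of young spleen or either library of aged spleen was dropped, Lck alone without young spleen replicate 2, and Cd247, Lck and Zap70 without young muscle replicate 2. Without young muscle replicate 1, the library high in myeloid genes, Cd3d, Cd3g, Cd247 and Lck passed, and without either aged muscle library 6 genes did. Cd3d in young mice was at -0.43 and -0.53 without a young spleen library, -0.48 without either aged spleen library and -0.38 without young muscle replicate 2, and Cd247 was at -0.65 where its call ended. The young call of Cd3d also ended with library-size scaling (-0.37) and without robust estimation (-0.48), and the aged calls of Lat (-0.46) and Cd5 (0.55) when only the aged libraries were fitted.

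**Figure D2:**
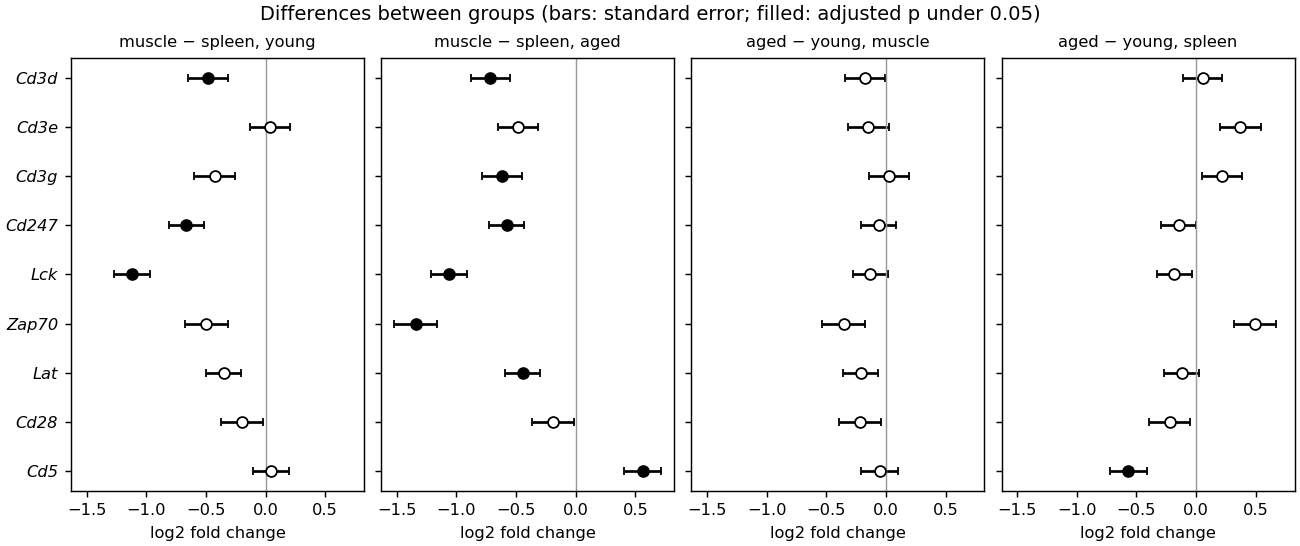
Log2 fold changes (horizontal axes) of the 9 genes in the tissue and age comparisons; bars are standard errors and filled points have an edgeR adjusted p under 0.05. The filled points are 3 in young and 7 in aged mice for muscle against spleen, 0 for age in muscle and 1 (Cd5) for age in spleen.

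**Figure D3:**
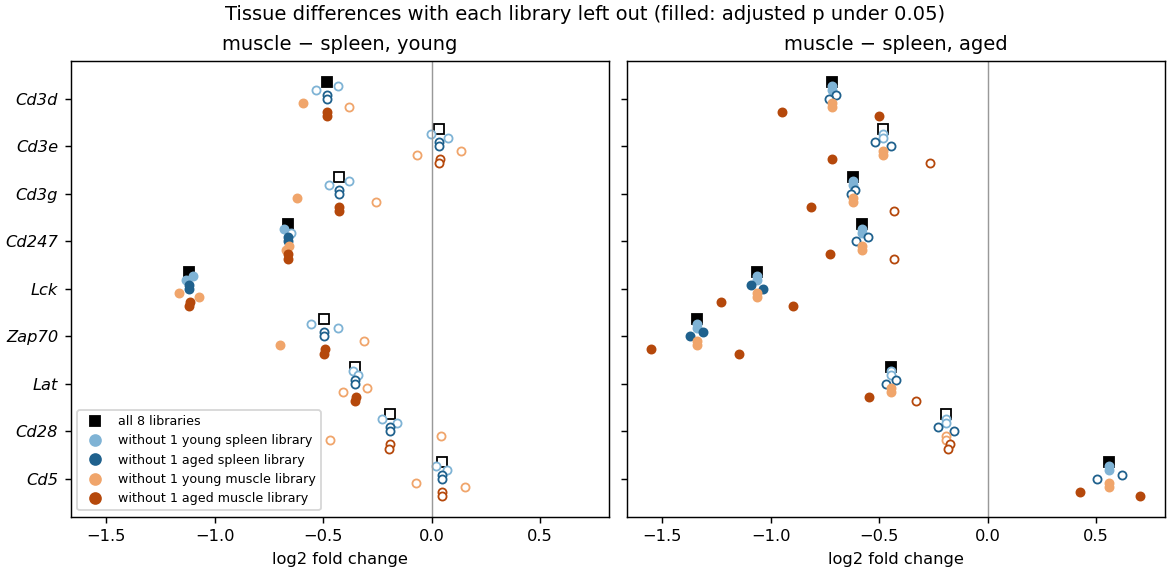
Log2 fold changes of muscle against spleen (horizontal axes) with all 8 libraries (squares) and with each library left out (circles, coloured by the group that lost a library); filled symbols have an edgeR adjusted p under 0.05. Lck is filled throughout in both panels and Zap70 in aged mice, while most other calls depend on at least 1 library.

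Ratios of counts within a library do not depend on how libraries are scaled. The pairs below were chosen after the values were seen, so a gap between tissues is no test of whether the genes shifted together. The ratio of Cd5 to Lck counts was 0.479 and 0.508 in young and 0.401 and 0.356 in aged spleen, and 1.16 and 1.05 in young and 1.15 and 1.19 in aged muscle, so that the lowest muscle library was above the highest spleen library. The ratio of Lat to Lck was 0.297 to 0.327 in spleen and 0.469 to 0.55 in muscle, also without overlap. The ratio of Lck to Cd4, the coreceptor that carries Lck to the receptor, was 2.91 to 5.23 in spleen and 1.86 to 2.14 in muscle. Fyn encodes the other Src-family kinase of T cells. The ratio of Fyn to Lck overlapped in young mice, at 0.41 and 0.414 in spleen and 0.406 and 0.427 in muscle. In aged mice it did not, at 0.464 and 0.444 in spleen and 0.382 and 0.346 in muscle.

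Within the receptor complex, the ratio of Cd3e to Cd3d was 0.437 and 0.497 in young spleen and 0.559 to 0.773 in the other groups. The ratio of Cd3g to Cd3d ranged from 0.79 to 0.99 and that of Cd247 to Cd3d from 0.908 to 1.16, with spleen and muscle overlapping in young mice. In aged mice both ratios were higher in muscle without overlap. There Cd3g to Cd3d was 0.943 and 0.99 in muscle against 0.896 and 0.906 in spleen. Cd247 to Cd3d was 1.01 and 1.13 against 0.973 and 0.961. The ratio of Zap70 to Lck was 0.233 and 0.26 in young and 0.409 and 0.378 in aged spleen, and 0.319 and 0.444 in young and 0.332 and 0.314 in aged muscle. These ratios were chosen after the values were seen and are given without a test.

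**Figure D4:**
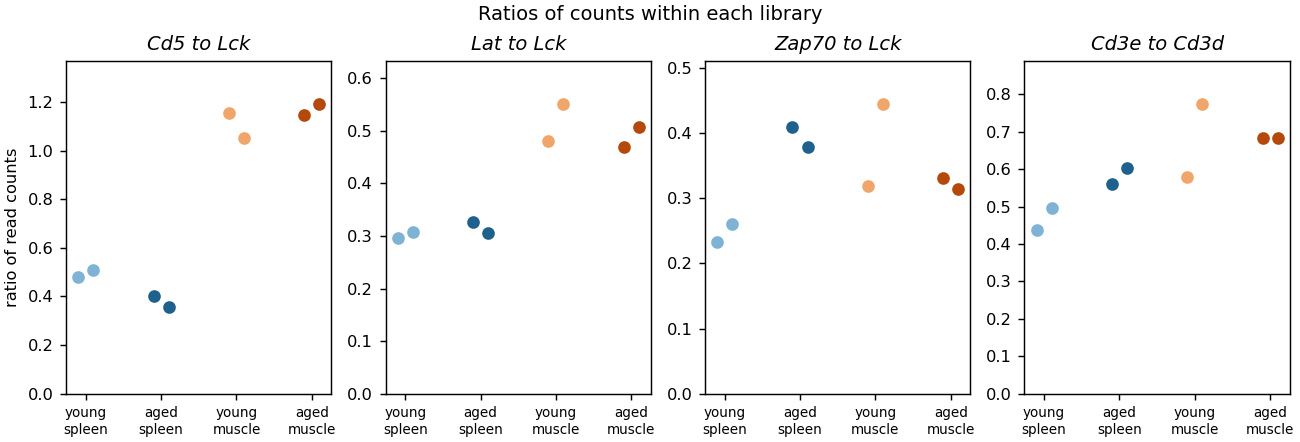
Ratios of read counts within each library (vertical axes, starting at 0) for 4 gene pairs; each point is a library. Cd5 to Lck and Lat to Lck separate muscle from spleen, whereas Zap70 to Lck and Cd3e to Cd3d are lowest in young spleen.

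Between ages in muscle, no difference in these genes was large against the spread of the libraries. By edgeR 0 of the 9 passed, against 2.02% of all genes tested (1.14% higher and 0.88% lower), 0 had an unadjusted p under 0.05, and 0 passed by DESeq2. The values ranged from -0.35 ± 0.18 for Zap70 to 0.03 ± 0.17 for Cd3g, with a median of -0.15 beside 0.03 over all genes. The young and aged muscle libraries overlapped for 8 of the 9 genes, and for Lat both aged libraries were lower, as were 20.3% of all genes tested. Aged muscle replicate 2 was the lowest muscle library for Cd3d, Cd3e, Cd247, Lck, Zap70, Lat and Cd5, and without it the median of the 9 was 0.04. The spread between muscle libraries of 1 group, such as 517 and 373 CPM for Cd3d in aged muscle, was larger than most of these differences.

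In spleen, Cd5 was lower in aged mice by -0.57 ± 0.15, or 1.48-fold (edgeR adjusted p = 0.0488), and it was the 1 gene of the 9 that passed, against 4.24% of all genes tested (2.08% higher and 2.17% lower). This call did not survive the removal of any of the 4 spleen libraries (-0.63 to -0.51). Under library-size scaling Cd5 was at -0.40 and no longer passed, and Zap70 passed as higher. Zap70 and Cd3e were higher in both aged spleen libraries, with differences of 0.49 ± 0.17 (edgeR adjusted p = 0.15) and 0.37 ± 0.17 (edgeR adjusted p = 0.28) that did not pass. When only the spleen libraries were fitted, Zap70, Cd3e and Cd5 all passed. The young and aged spleen libraries did not overlap for 8 of the 9 genes, higher with age for Cd3e, Cd3g and Zap70 and lower for Cd247, Lck, Lat, Cd28 and Cd5. Over all genes tested 28.8% were higher and 24% lower without overlap.

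The difference of the age effects, muscle minus spleen, passed for 0 of the 9 genes by edgeR, against 2.52% of all genes tested (1.35% higher and 1.17% lower). Zap70 passed by DESeq2, and 3 of the 9 had an unadjusted p under 0.05. These were Zap70 at -0.85 ± 0.25 (edgeR adjusted p = 0.10), Cd3e at -0.52 ± 0.24 (edgeR adjusted p = 0.37) and Cd5 at 0.51 ± 0.22 (edgeR adjusted p = 0.31). The value of Zap70 also passed with library-size scaling, without a low-count filter, and with replicate 1 of either muscle group left out. The same contrast is the difference of the tissue effects between ages, so the larger tissue difference of Zap70 in aged than in young mice did not pass as a difference.

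The other 65 genes of the pathway, in 5 lists, also moved mainly between tissues. In young mice 27 were lower and 6 higher in muscle, and in aged mice 21 and 2. That was 50.8% and 35.4% of the 65, against 22.3% and 18.8% of all genes called in either direction. Of 10 further kinases, 9 were lower in young and 4 in aged muscle, with 0 higher by edgeR at either age (at an unadjusted p under 0.05, 9 and 5 were lower and 0 and 1 higher). Without either young spleen library 19 of the 65 passed in young mice, and without either aged spleen library 14 passed in aged mice.

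Fyn was at 660.4 and 652 CPM in young and 639 and 635 in aged spleen, and 307 and 304 in young and 288 and 204 in aged muscle, with log2 fold changes of -1.10 ± 0.17 and -1.37 ± 0.17 between tissues. The receptor beta chain constant genes were lower in muscle as well, Trbc1 by -1.41 ± 0.18 and -1.19 ± 0.18 and Trbc2 by -0.92 ± 0.15 and -0.76 ± 0.15 in young and aged mice. Trbc1 and Trbc2 are near-identical copies whose reads can be split or dropped in counting, and the call of Trbc2 in aged mice ended without aged spleen replicate 1 (-0.70). The kinase gene Prkcq, which links the receptor to NF-kB, was lower in muscle by -1.86 ± 0.16 in young and -0.65 ± 0.15 in aged mice, and the ubiquitin ligase gene Cbl, which marks active receptor complexes for degradation, by -1.51 ± 0.18 in young and -1.83 ± 0.19 in aged mice. The adaptor gene Sh2d1a (SAP) was lower in muscle by -1.01 ± 0.22 in young and -2.06 ± 0.22 in aged mice.

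Of the 65, those higher in muscle were Icos, Ctla4, Sla, Malt1, Dok1 and Lime1 in young mice (the last 4 at 0.59 to 0.75, with Sla and Lime1 named after their values were seen), and Icos and Ctla4 in aged mice. Malt1 and Dok1 went the other way in aged mice and were lower in muscle. Their values were -1.01 ± 0.16 (edgeR adjusted p = 0.00059) and -0.70 ± 0.19 (edgeR adjusted p = 0.018). Icos, a costimulator, averaged 453 ± 40 CPM in young and 614 ± 7.3 in aged spleen, and 2399.5 ± 17 in young and 1504 ± 239 in aged muscle (SD, n = 2). Its tissue difference was 2.40 ± 0.16 in young and 1.29 ± 0.15 in aged mice. Ctla4, the inhibitory receptor that competes with CD28 for its ligands, was at 505 ± 34, 579.6 ± 21, 2471 ± 0.52 and 1404 ± 105 CPM in the same groups, with tissue differences of 2.29 ± 0.14 and 1.28 ± 0.14. Cd28 itself, as given above, did not pass in either comparison. Ctla4 also belongs to the Treg marker list.

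With age in muscle 1 of the 65 rose and 2 fell (4.62%, against 2.02% of all genes tested). Ctla4 fell by 0.81 ± 0.14 (edgeR adjusted p = 0.0045) and Icos by 0.67 ± 0.15 (edgeR adjusted p = 0.028), and the adaptor gene Themis rose by 1.11 ± 0.27 (edgeR adjusted p = 0.049), while Dok2, an inhibitory adaptor, had a value of -0.50 ± 0.16 that did not pass by edgeR and passed by DESeq2 (adjusted p = 0.0457). The calls of Icos and Themis ended without any 1 spleen library, with fold changes unmoved at -0.67 and 1.11. They also ended when replicate 1 of young muscle (-0.68 and 0.88) or replicate 2 of aged muscle (-0.52 and 0.74) was dropped. With only the muscle libraries fitted, all 3 calls ended at fold changes of -0.82 for Ctla4, -0.67 for Icos and 1.11 for Themis, and that of Themis ended without robust estimation too. With age in spleen 4 rose and 4 fell (12.3%, against 4.24% of all genes tested). Malt1, a protease of the NF-kB branch, rose by 1.50 ± 0.16, the adaptor gene Dok1 by 1.18 ± 0.19 and the transcription factor gene Nfatc1 by 0.87 ± 0.15, and the Tec-family kinase gene Txk fell by 1.48 ± 0.20. The call of Nfatc1 ended without any 1 spleen library (0.83 to 0.92), and that of Dok1 when replicate 2 of young spleen (1.04) or replicate 1 of aged spleen (1.04) was dropped. Without 1 spleen library 2 to 4 of the 65 passed in all, and 23 did when only the spleen libraries were fitted.

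**Figure D5:**
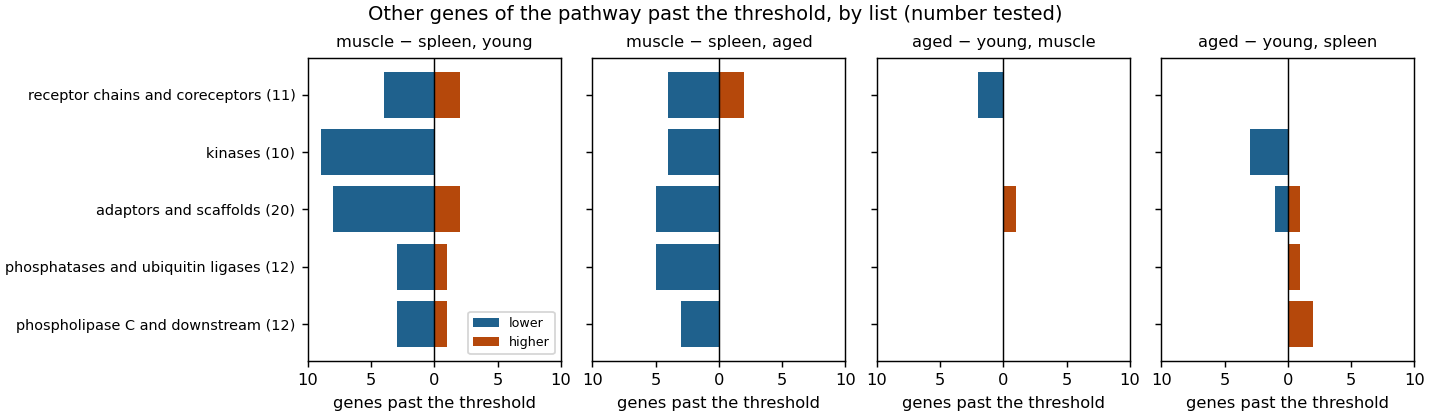
Numbers of the 65 other pathway genes past the threshold (horizontal axes; to the left lower, to the right higher) in 5 lists, with the number tested in each list in brackets. Lower genes outnumber higher ones between tissues, with 27 against 6 in young and 21 against 2 in aged mice, and few genes pass between ages.

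Levels of the 9 genes were compared with each other per kilobase of annotated exon. By this measure Lck and Cd3d were the highest of the 9 in every group, at 544 ± 8.2 and 388 ± 20 CPM per kb in young and 479 ± 13 and 402 ± 6.8 in aged spleen, and 251 ± 11 and 277 ± 29 in young and 229 ± 40 and 245 ± 56 in aged muscle (SD, n = 2). Lck was above Cd3d in both spleen groups without overlap, and the libraries of the pair overlapped in both muscle groups. Between these and Cd28, the order in young spleen was Lat, Cd3g, Cd5, Cd247, Zap70 and Cd3e, and in aged spleen Cd3g, Zap70, Lat, Cd247, Cd5 and Cd3e. In young muscle it was Cd5, Lat, Cd3g, Zap70, Cd247 and Cd3e, and in aged muscle Cd5, Cd3g, Lat, Cd247, Cd3e and Zap70. Libraries of neighbours overlapped for Lat with Cd3g in young spleen, for Lat with Cd3g and Zap70 with Cd247 in young muscle, and for Cd3g with Lat, Cd247 with Cd3e and Cd3e with Zap70 in aged muscle. Cd28 was the lowest in every group, at 30.3 to 40.3 CPM per kb on average. Cd5 took the fifth place in young spleen, at 160 ± 4.1 CPM per kb, the seventh in aged spleen and the third in both muscle groups, at 165 ± 18 in young and 159 ± 23 in aged muscle. In aged spleen it overlapped with Cd3e, the next in order, and in aged muscle with Cd3g. Whether read coverage was even along the transcripts was not tested, and the exon length of Cd247 includes the stretch shared with Pou2f1.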

How the data were processed

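RNA of sorted Tregs was amplified by in vitro transcription and then by PCR, per the labels' protocols. No molecular identifiers are described, so counts are of reads. The authors deposited 1 table of whole-number counts per gene symbol for 8 libraries, without normalization. Tools listed in the submitters' processing notes are HTSeq, SAMtools 0.1.19, Picard, TopHat and TopHat2, with mm10 as build; annotation and strand setting are not given there. All columns were used, and every row named a gene.

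In R 4.3.3 with edgeR 4.0.16, genes were kept by filterByExpr over the 4 groups (14772 genes) and scaled by TMM. A robust quasi-likelihood model with 1 coefficient per group was fitted to all 8 libraries (4 residual degrees of freedom; biological coefficient of variation 0.288). Tests were two-sided, with Benjamini-Hochberg adjustment over all genes tested and a threshold of 0.05. SEs were taken as |log2 fold change|/√F, and CPM used TMM-scaled library sizes. The code was tested on simulated counts. The alternatives were library-size scaling, DESeq2 1.42.0, no low-count filter, only the groups compared, replicate blocks, no robust estimation, and leaving out each library with the tested genes held.

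The members, the 5 pathway lists and the 9 cell type lists were chosen with earlier results of these data known. The text names all members, the 4 pathway genes of smallest p in each comparison, and fixed direct partners. Motifs were chosen after the promoters were seen. Positions are from GENCODE M21, whose assembly GRCm38 is that of mm10, and promoters from RefSeq (GRCm38.p6), which matched 8 of the 9 members. In the promoters, bases after the outermost annotated start were dropped. Some listed marker genes (Trdc, Adgre1, Hbb-bs and Hbb-bt) were not used here. Pou2f1 and Ighm were named after their values were seen.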

Additional observations from a re-analysis of the deposited data

Results flagged for a closer look

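The age effect differed between muscle and spleen, by the test of the difference itself, for 4 pathway genes named by the rule, and for 0 of the 9 receptor and proximal signalling genes by edgeR. Malt1 had a difference of -1.75 ± 0.23 (edgeR adjusted p = 0.00049), at 146 ± 2.9 CPM in young and 413 ± 40.1 in aged spleen against 245 ± 27 and 205 ± 21 in young and aged muscle (SD, n = 2). Themis had a difference of 2.43 ± 0.37 (edgeR adjusted p = 0.0018), at 142 ± 28 and 56.9 ± 3.9 CPM in young and aged spleen against 30.9 ± 7.2 and 66.5 ± 21 in muscle. Prkcq had a difference of 1.21 ± 0.22 (edgeR adjusted p = 0.0060), at 812 ± 47 and 451 ± 15 CPM in spleen against 224 ± 15 and 287 ± 41 in muscle, and its call was lost when replicate 1 of young spleen (1.15) or either library of aged spleen (1.17 and 1.24) was left out. Dok1 had a difference of -1.45 ± 0.27 (edgeR adjusted p = 0.0080), at 78.1 ± 11 and 177 ± 22 CPM in spleen against 131 ± 20 and 109 ± 3.1 in muscle. The call of Dok1 was lost when young spleen replicate 2 (-1.30) or, separately, aged spleen replicate 1 (-1.31) was left out.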

How the results depend on the processing

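With 2 libraries per group, counts of called members moved with single libraries, and a library left out leaves its group with 1 library assumed to vary like the rest. Leaving out 1 library gave 0 called members for age in muscle each time, 0 to 1 for age in spleen, 0 to 1 for the difference of age effects, 1 to 6 for tissue in young mice and 2 to 8 for tissue in aged mice. For age in spleen (1 called), the count was 0 without a low-count filter, 3 with only the groups compared and 0 without robust estimation. For the difference of age effects (0 called), it was 1 with library-size scaling, 1 by DESeq2 and 1 without a low-count filter. Differences between replicates 1 and 2 correlated across genes at -0.0652 to 0.256 between groups. For spleen and muscle of the same age, which could share mice, the values were 0.108 in young and -0.0652 in aged mice. Such values cannot exclude shared mice. The labels do not say whether same-numbered libraries share mice, and the numbers were not taken to pair the samples. With the replicate block over all groups the count for tissue in young mice (3 called) was 5, that for tissue in aged mice (7 called) was 8, and that for age in spleen was 1; blocks within each age gave 4 and 8. Library-size scaling moved the median of all genes from 0.05 to 0.21 for age in spleen, from 0.03 to 0.15 for age in muscle and from 0.07 to 0.18 for tissue in young mice, and the share of higher calls from 49% to 67.4% for age in spleen and from 56.4% to 66.4% for age in muscle. Over all genes, 168 were higher and 130 lower with age in muscle, against 33 and 17 with only the groups compared, 417 and 331 without a low-count filter, 232 and 249 by DESeq2 and 263 and 216 with the replicate block. With age in spleen 307 were higher and 320 lower, against 928 and 1002 with only the groups compared and 632 and 407 without a low-count filter. For the difference of age effects 199 and 173 passed, against 299 and 371 without a low-count filter. Of the 65 other pathway genes 7 passed in that test, and 2 to 3 without 1 spleen library.

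Of 639 member values under alternatives, 553 kept direction and side of the threshold, 32 lost a call, 27 gained one and 27 changed sign. None of those that changed sign was called in the analysis of all 8 libraries. For age in muscle, library-size scaling gave 0.048 for Cd247 and 0.061 for Cd5. Leaving out 1 library gave -0.43 to 0.038 for Cd3d, -0.40 to 0.070 for Cd3e, -0.18 to 0.22 for Cd3g, -0.23 to 0.088 for Cd247, -0.31 to 0.035 for Lck, -0.45 to 0.056 for Cd28 and -0.21 to 0.089 for Cd5, with the signs changing without 1 of the muscle libraries. For age in spleen, library-size scaling gave 0.020 for Cd247, 0.046 for Lat and 0.12 for Fyn, and Trbc1 spanned -0.027 to 0.21 with 1 library left out. For the difference of age effects, library-size scaling gave -0.0010 for Lck and -0.052 for Cd28, and Cd28 was -0.024 without a low-count filter. Leaving out 1 library gave -0.39 to 0.0031 for Cd3g, -0.064 to 0.23 for Cd247, -0.11 to 0.22 for Lck, -0.20 to 0.023 for Lat and -0.23 to 0.28 for Cd28. For tissue in young mice it gave -0.067 to 0.13 for Cd3e, -0.47 to 0.041 for Cd28 and -0.071 to 0.15 for Cd5. The cause of these changes was not tested. Fits of only the groups compared were not run for the difference of age effects, which needs all 4.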

Other observations

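Among 8195 other tested genes with a mean log2 CPM of at least 4, the levels most like the mean of Cd3d, Cd3e, Cd3g and Cd247 over the 8 libraries were those of Pigo (Pearson's r = 0.99), Map2k7 (0.99), 1110034G24Rik (0.99), Clk2 (0.98) and Il2rb (0.98). Il2rb encodes the IL-2 receptor beta chain, and Map2k7 a kinase of the JNK branch. The libraries split by tissue, so these values mostly describe a shared gap between spleen and muscle and are given without a test.

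Fcer1g, which encodes a signalling chain related to the zeta chain, was at 2.32 to 5.77 CPM in the spleen libraries. In muscle it was at 39.8 and 7.99 CPM in the young libraries, the first of them the library high in myeloid genes, and at 0 and 0.846 in the aged ones. Myeloid and NK cells also express this gene. The receptor alpha chain constant gene Trac was at 8.41 to 21.7 CPM in the 8 libraries and did not pass in any of the 5 comparisons. It had only 18 to 64 reads per library, beside 756 to 2439 for Trbc2, and whether its row holds all reads of the gene was not tested. With SEs of 0.49 to 0.70, its not passing says little about whether it changed.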
